A study of Mus musculus with 30 samples.

Results

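The genes described here are 10 transcripts by which natural killer (NK) cells and cytotoxic T cells are recognised: the granule genes Gzma, Gzmb, Prf1 and Nkg7, the surface receptor genes Klrb1c, Klrd1, Klrk1 and Ncr1, and the transcription factor genes Eomes and Tbx21. They were matched by symbol, and all 10 were found in both count tables, among 17336 genes that at least 1 table lists. All 10 passed the filter on low counts in both tissues. RNA-seq of 30 libraries was analysed, 15 from whole bone marrow (BM) cells and 15 from F4/80+ cells sorted out of visceral adipose tissue, which the study calls adipose tissue macrophages (ATM), with 3 libraries in each of 5 groups per tissue.

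All libraries carry the strain label C57BL/6J, and the labels give an age of 12 to 14 weeks and both sexes. Whether this is the age at transplantation or at sampling is unknown here. Per the study's methods, lethally irradiated WT or leptin-deficient Ob/Ob recipients received BM cells of Shp2 E76K/+;LysM-Cre+ donors (CD45.2) mixed 1:1 with Boy/J cells (CD45.1). Shp2 E76K is a leukemia-associated activating form of the phosphatase SHP2. LysM-Cre drives it mainly in myeloid cells, but the study also speaks of mutant stem and progenitor cells. Whether the lymphocytes carried it is unknown here. The labels do not give a donor genotype for each library. The WT group carries no treatment label, and the study describes its BM as from transplanted WT recipients. For the adipose cells its captions differ. A caption names obese recipients of WT donor cells as the comparison, and another names WT mice beside Ob/Ob mice bearing mutant cells. Which of these the ATM WT libraries are is unknown here, so WT is used below as a group label. The Ob/Ob groups were treated for 30 days, starting 8 weeks after transplantation. They were given Vehicle, beinaglutide (3 mg/kg), 200 µg of an antibody that blocks IL-17A 3 times a week, or both agents (Combo). Beinaglutide activates the GLP-1 receptor and is called the GLP-1R agonist here. The question asked of each gene was how it differed between obese Vehicle and WT mice, and between treated and Vehicle mice.

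NK cells and cytotoxic T cells kill by releasing granules, in which perforin opens the target membrane and granzymes enter the cell and start its death. Whether an NK cell fires is set by the sum of activating and inhibitory receptors on its surface, and the T-box factors T-bet and EOMES drive the lineage and its granule genes. Granzyme and perforin transcription rises when these lymphocytes meet cytokines such as IL-12, IL-15 and IL-18, and granzyme B is also made by some mast cells and plasmacytoid dendritic cells. In bulk RNA, fewer cells of a type and less RNA per cell cannot be told apart.

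The totals per library were 31086184 to 39925495 counts in BM and 24876074 to 45300263 in ATM. No pair of libraries of 1 group agreed within sampling noise. The libraries of a group were alike in BM (biological coefficient of variation 3.51%) and less so in ATM (32.5%). Where nothing ties each library to its own mouse, p-values measure only the spread between these libraries, which may be technical. Adgre1, which encodes F4/80, was lowest in the ATM Vehicle libraries, at 30.2 to 52.4 CPM, against 192 to 894 CPM in the other groups. CPM are counts scaled to the effective size of their own library, which is the library total after TMM scaling. Neutrophil markers summed to 21369 to 22658 CPM in ATM Vehicle and 12762 to 13130 CPM in ATM Combo, and to at most 413 CPM in the other ATM groups. Genes of other organs were also present: 10 epididymal genes summed to 3500 to 3628 CPM in ATM WT, 295 to 343 CPM with the antibody, 68.9 to 73.9 CPM with the agonist and at most 7.03 CPM in Vehicle and Combo, and 15 pancreatic acinar genes to 1583 to 1601 CPM in ATM Combo and at most 28.5 CPM elsewhere. Every ATM group thus had a makeup of its own, and its part in the values below was not tested. The female transcript Xist reached 182 to 193 CPM in BM Vehicle, 101 to 105 CPM in BM Combo and 2.54 to 3.26 CPM in BM antibody libraries, against at most 0.16 CPM in the other BM groups, and 30.1 to 46.2 CPM in ATM Vehicle and 31.4 to 38.1 CPM in ATM Combo, against at most 1.22 CPM in the other ATM groups. Sex makeup and group therefore cannot be told apart between groups whose Xist differs, which include Vehicle and WT in both tissues. ATM Vehicle and ATM Combo were alike in Xist, but the labels do not give the sex makeup of any group.

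The 10 genes lie on 7 chromosomes of GRCm38 (GENCODE M21 annotation). Klrb1c (chr6:128778485-128789215, minus strand), Klrd1 (chr6:129591782-129598775, plus) and Klrk1 (chr6:129610323-129623864, minus) sit in the NK gene complex. Ncr1 (chr7:4337724-4345164, plus) and Nkg7 (chr7:43437073-43438249, plus) share chromosome 7. Eomes is at chr9:118478212-118486132 (plus), Prf1 at chr10:61297833-61304680 (plus), Tbx21 at chr11:97098071-97115331 (minus), Gzma at chr13:113093825-113100981 (minus) and Gzmb at chr14:56258838-56262260 (minus). Klrb1c shares 13.9% of its exon bases with Gm44511 and 17% of its 50-base words with Gm44511 and the Klrb1 genes Klrb1-ps1, Klrb1a and Klrb1b together, and Eomes shares 2.84% with the antisense gene Gm33460. Reads were counted without strand and for every gene they overlapped, so the values of these 2 genes are uncertain to that extent, while the other 8 share no exon base.

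T-bet and EOMES bind T-box sites, so the letters GGTGTGA were searched on both strands of RefSeq promoters (GRCm38.p6, from 250 bases before to 50 after the gene start). Entries were matched for 9 of the 10 genes. Klrd1 had none. Only the Nkg7 promoter held the letters, beginning 13 bases before its start, whereas 1307 of 32851 promoters of all genes (3.98%) held them. The stretch is shown because it holds the only match among these genes, and its relation to the Nkg7 levels was not tested. It lies on the plus strand at chr7:43437108-43437137, within an exon of the GENCODE annotation, and the capitals mark the match, which is a description of letters and not of binding.
Nkg7 promoter: agggagggggtagggaaGGTGTGAgaagaa

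In BM, the granule genes for killing stood far above WT in obese Vehicle mice while several NK receptor genes stood below. Of the 10 genes, 3 rose (Gzma, Gzmb and Prf1) and 2 fell (Klrd1 and Ncr1) by edgeR's quasi-likelihood test (adjusted p under 0.05 and a change beyond 1 on the log2 scale). These 5 of 10 stand beside 19.5% of the 13353 genes tested, 9.44% higher and 10% lower. The 2 groups did not overlap for 9 of the 10 genes, beside 75.8% of all genes, so a lack of overlap is common in these libraries.

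Gzmb, the serine protease granzyme B, was measured at 203, 244 and 253 normalized counts in WT and at 8411, 8408 and 8375 in Vehicle. Normalized counts are counts scaled to the mean effective library size of the tissue. Every Vehicle library was far above every WT library, and Gzmb was 36.2-fold higher (log2 fold change 5.18, SE 0.0557, edgeR adjusted p = 2.16e-44). Gzma, granzyme A, went from 869, 880 and 904 in WT to 3175, 3237 and 3143 in Vehicle (log2 fold change 1.85, SE 0.0641, edgeR adjusted p = 7.6e-24). Prf1, which encodes perforin, went from 227, 214 and 229 to 1105, 1228 and 1167 (log2 fold change 2.38, SE 0.103, edgeR adjusted p = 4.68e-22). For all 3 genes the groups were apart.

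The receptor genes went the other way, with 1 exception. Ncr1, the activating receptor NKp46 and among the most NK-restricted of the genes, was at 319, 287 and 327 normalized counts in WT and at 78.2, 64.4 and 75.6 in Vehicle (log2 fold change -2.10, SE 0.135, edgeR adjusted p = 2.41e-17). Klrd1, which encodes CD94, the partner of NKG2 receptors, was at 396, 241 and 238 in WT and at 124, 121 and 130 in Vehicle (log2 fold change -1.24, SE 0.157, edgeR adjusted p = 1.88e-08). Its WT replicate 1 was high, and without that library the change was -0.94, inside the limit of 1. Klrb1c, the NK1.1 antigen, was at 527 ± 18.1 in WT and 320 ± 40.8 in Vehicle (mean ± SD, n = 3), a difference of -0.72 that passed the adjusted p but not the fold limit. The exception was Klrk1, the activating receptor NKG2D, at 671 ± 73.8 in WT and 1282 ± 93.9 in Vehicle, a log2 difference of 0.93 and short of the limit.

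Neither transcription factor gene was called in that comparison. Eomes was at 180 ± 20.4 normalized counts in WT and 107 ± 8.22 in Vehicle (log2 difference -0.75). Tbx21, which encodes T-bet, was at 144 ± 20.9 and 109 ± 12.4, and it was the gene whose WT and Vehicle libraries overlapped. Nkg7, a granule membrane protein of NK and T cells, was at 3873 ± 143 in WT and 2778 ± 17.7 in Vehicle (log2 difference -0.48), so it did not share the direction of Gzma, Gzmb and Prf1.

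The makeup of the 10 genes' counts changed with these values. Gzmb took 47.7 to 48% of their summed counts in the BM Vehicle libraries and 2.36 to 3.61% in the other groups. Nkg7 took 51.1 to 55% in WT, 15.8 to 15.9% in Vehicle and 83.7 to 84.9% in Combo. Per kilobase of exon, which allows genes to be compared, Nkg7 had the highest level of the 10 in BM WT (122 RPKM, which is CPM per kilobase), ahead of Gzma at 25.2. In Vehicle, Gzmb at 168 RPKM was ahead of Gzma at 90.9 and Nkg7 at 87.3 RPKM.

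**Figure D1:**
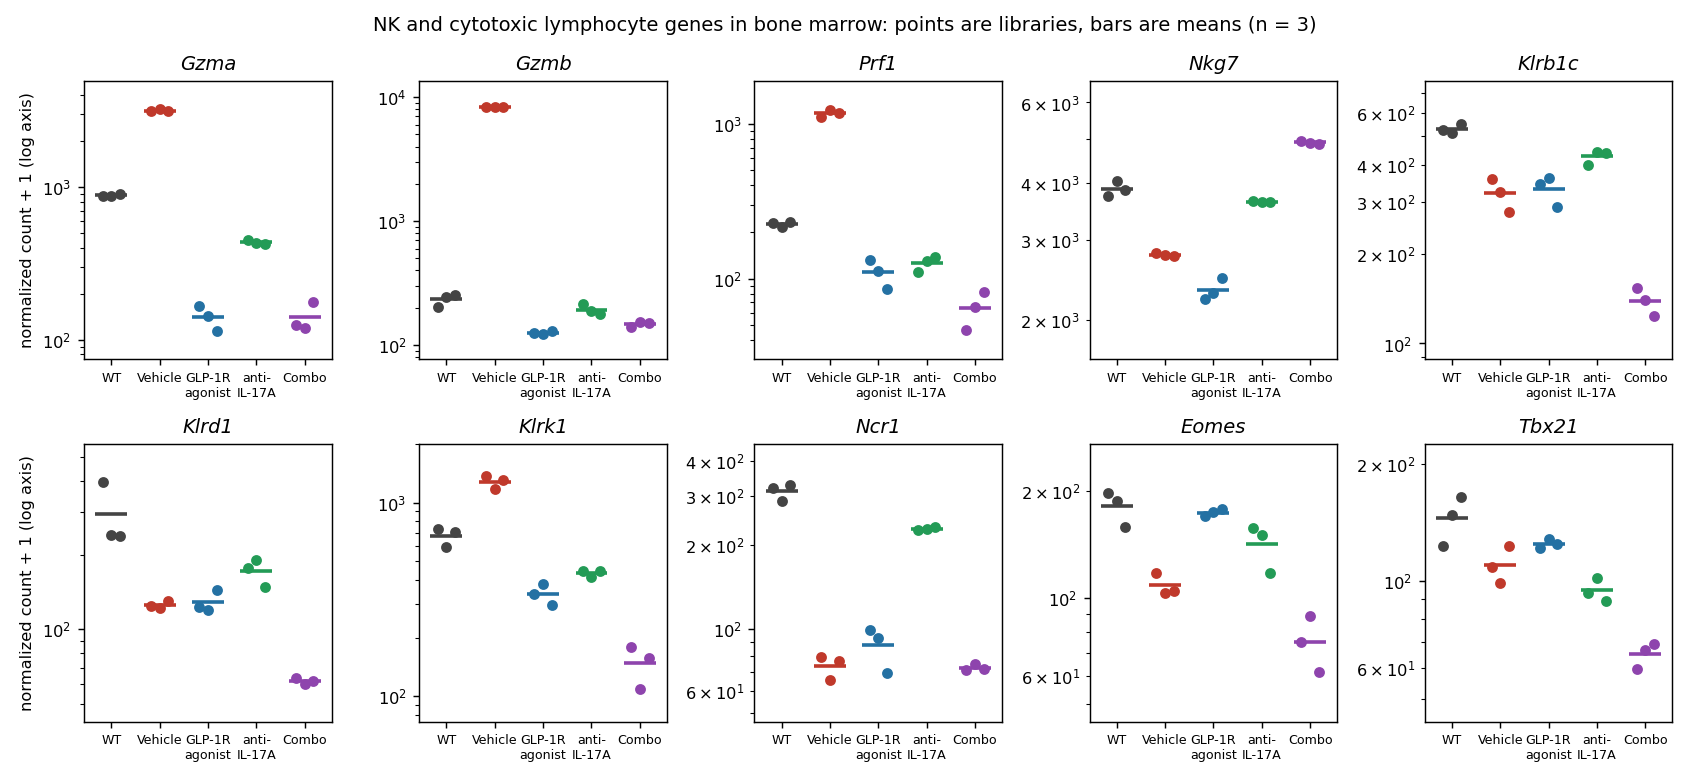
Normalized count + 1 (log axis) of each of the 10 genes in the 15 BM libraries, by group. Points are libraries and bars are group means of 3 libraries. Gzma, Gzmb and Prf1 peak in Vehicle, whereas Ncr1 and Klrd1 are highest in WT and Nkg7 is highest in Combo.

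Markers of other cells also moved in BM. None of the 12 T cell markers tested was called between Vehicle and WT, and they summed to 172 to 178 CPM in WT and 134 to 138 CPM in Vehicle. The 8 mast cell and basophil markers summed to 792 to 836 CPM in WT and 1091 to 1117 CPM in Vehicle, with 0 of 8 called, and the 7 plasmacytoid dendritic cell markers to 136 to 143 CPM and 94.0 to 97.5 CPM, with 2 of 7 lower. The part of these cells in the Gzmb values was not tested. B cell markers summed to 1360 to 1393 CPM in WT and 396 to 415 CPM in Vehicle, with 8 of 9 lower. Over all genes, 10% were called lower and 9.44% higher in that comparison.

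Each treatment was compared with Vehicle in BM, and these comparisons share the 3 Vehicle libraries with each other and with the comparison to WT. Gzma, Gzmb, Prf1 and Klrk1 fell under every treatment, with group means below those of WT. The summed mast cell and basophil markers were also lower than in Vehicle, at 462 to 472 CPM with the agonist, 600.0 to 613 CPM with the antibody and 540 to 548 CPM in Combo, although 4 of the 8 rose and 4 fell with the agonist, 1 rose and 2 fell with the antibody, and 2 rose and 3 fell in Combo. Their part in the Gzmb values was not tested. Under the GLP-1R agonist these 4 were the only genes of the 10 called, beside 16.7% of all genes called and 9.08% called lower.

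With the GLP-1R agonist, Gzmb was at 124, 123 and 129 normalized counts, 67.2-fold below Vehicle (log2 fold change -6.07, SE 0.0608, edgeR adjusted p = 1.02e-45). Gzma was at 166, 142 and 113 (log2 fold change -4.50, SE 0.0825), Prf1 at 131, 111 and 84.8 (-3.41, SE 0.114) and Klrk1 at 336, 380 and 293 (-1.92, SE 0.108). No library of the treated group overlapped Vehicle for these 4 genes, but a lack of overlap was common over all BM genes (75.8% in Vehicle against WT). The receptor genes that stood low in Vehicle were close to it: Ncr1 at 86.3 ± 15.8 (log2 difference 0.26, edgeR adjusted p = 0.145), Klrd1 at 128 ± 13.4 (0.03, adjusted p = 0.881) and Klrb1c at 330 ± 37.3 (0.05, adjusted p = 0.674). A difference was not detectable for these 3 genes at this replication.

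With the anti-IL-17A antibody, 4 genes fell and 1 rose, beside 16.1% of all genes called, 8.46% lower and 7.65% higher. Gzmb was at 213, 187 and 177 normalized counts (log2 fold change -5.45, SE 0.057), Gzma at 449, 431 and 424 (-2.87, SE 0.0697), Prf1 at 109, 129 and 137 (-3.22, SE 0.111) and Klrk1 at 441, 412 and 441 (-1.57, SE 0.105). Ncr1 was the gene that rose, at 225, 227 and 232 against 64.4 to 78.2 in Vehicle (log2 fold change 1.65, SE 0.139, edgeR adjusted p = 9.73e-14). All 3 treated libraries were above Vehicle and below the 287 to 327 of WT.

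In Combo, 6 genes fell, beside 17.7% of all genes called and 11.1% called lower. Gzmb was at 138, 154 and 148 normalized counts (log2 fold change -5.84, SE 0.0604), Gzma at 124, 118 and 175 (-4.52, SE 0.0842) and Prf1 at 45.3, 64.6 and 81.4 (-4.19, SE 0.126). Klrk1 was at 179, 108 and 156 (-3.11, SE 0.125), Klrb1c at 153, 139 and 123 (-1.21, SE 0.113) and Klrd1 at 62.8, 59.3 and 60.5 (-1.03, SE 0.197, edgeR adjusted p = 2.31e-05). Vehicle and Combo did not overlap for any of these 6. A lack of overlap was common over all BM genes in Vehicle against WT (75.8%), and its share in the Combo comparison is not given. Ncr1 stayed at 70, 74.1 and 70.9, within the range of Vehicle (log2 difference -0.02, edgeR adjusted p = 0.925). Nkg7 was at 4901 ± 39.4 against 2778 ± 17.7 in Vehicle, a log2 difference of 0.82 that is short of the limit.

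**Figure D2:**
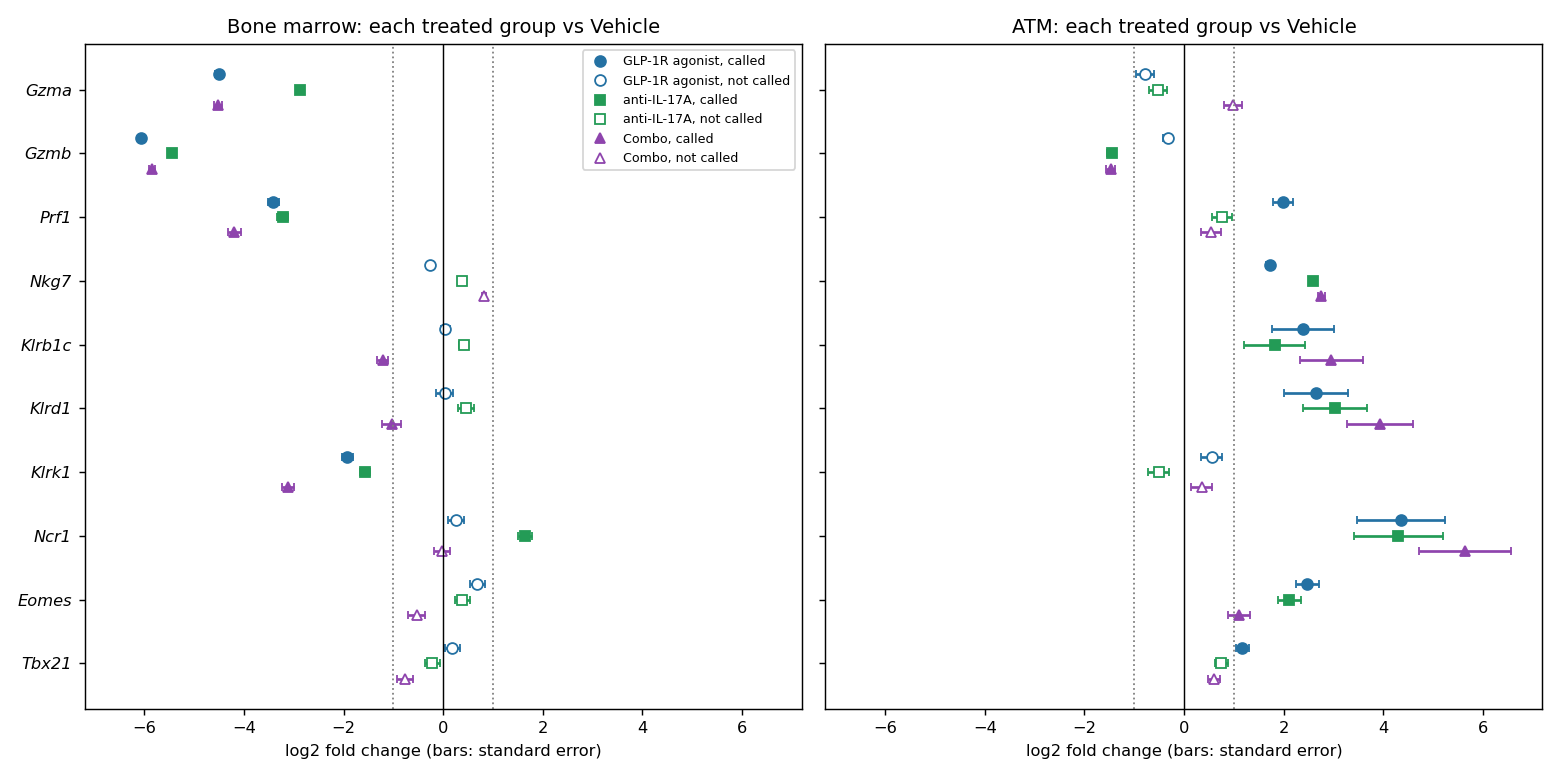
Log2 fold change (± SE) of the 10 genes in each of the 3 treatments against the 3 shared Vehicle libraries, for BM and ATM. Filled symbols are called genes and dotted lines mark the limit of 1 on the log2 scale. In BM the granzymes and Prf1 lie far below 0 in all 3 treatments, and in ATM Ncr1, Klrd1, Klrb1c, Nkg7 and Eomes lie above 0 in all 3.

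Compared with WT, the BM Combo libraries were low for 8 of the 10 genes, beside 14.3% of all genes called and 9.93% called lower. They fell by 2.67 (Gzma), 1.81 (Prf1), 1.93 (Klrb1c), 2.27 (Klrd1), 2.18 (Klrk1), 2.12 (Ncr1), 1.28 (Eomes) and 1.16 (Tbx21) on the log2 scale. Gzmb (log2 difference -0.66) and Nkg7 (0.34) were inside the limit. T cell markers summed to 62.4 to 66.4 CPM in Combo, the lowest of the 5 groups, with 7 of 12 lower than in WT, and their part in these 8 values was not tested.

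Combo was also set against each agent alone in BM. Against the GLP-1R agonist, Klrb1c (-1.26), Klrd1 (-1.06), Klrk1 (-1.19) and Eomes (-1.22) fell and Nkg7 rose (1.08), beside 13.2% of all genes called, 8.57% lower and 4.59% higher. Without GLP-1R agonist replicate 3, Klrd1 was at -0.98 and no longer called. Against the antibody alone, Gzma (-1.64), Klrb1c (-1.62), Klrd1 (-1.49), Klrk1 (-1.54) and Ncr1 (-1.67) fell, beside 5.67% of all genes called and 4.63% called lower. Prf1 (-0.97) and Eomes (-0.92) were just inside the limit. Prf1 passed it at -1.19 without Combo replicate 3 and -1.06 without antibody replicate 1, and Eomes at -1.06 without Combo replicate 2 and -1.04 without antibody replicate 3. Gzmb was called in neither comparison, with log2 differences of 0.23 for Combo against the agonist and -0.39 against the antibody.

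The order of the BM groups separated the genes. Neighbours in an order are said to differ here where the edgeR adjusted p was under 0.05, with no fold limit. Gzma, Prf1 and Klrk1 ran Vehicle, WT, antibody, GLP-1R agonist, Combo from high to low, in which the agonist and Combo did not differ for Gzma, nor the antibody and the agonist for Prf1. Gzmb ran Vehicle, WT, antibody, Combo, agonist, and every neighbour differed, of which only Vehicle and WT passed the fold limit, and Combo and the agonist (log2 difference 0.23) no longer differed when any 1 of their 6 libraries except Combo replicate 1 was left out, with an adjusted p of up to 0.131 (without Combo replicate 2). Klrb1c, Klrd1 and Ncr1 ran WT, antibody, agonist, Vehicle, Combo, and the agonist did not differ from Vehicle for any of these 3 genes. Nkg7 ran Combo, WT, antibody, Vehicle, agonist, and every neighbour differed, by log2 differences as small as 0.09 between WT and the antibody and none beyond the fold limit. Eomes and Tbx21 spanned only 2.43- and 2.25-fold from highest to lowest group, against 67.1-fold for Gzmb.

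In the F4/80+ cells of adipose tissue, obese Vehicle mice again had high Gzmb and low Ncr1 and Klrd1, but Gzma and Prf1 were not raised. Of the 10 genes, 2 rose (Gzmb and Tbx21) and 4 fell (Nkg7, Klrb1c, Klrd1 and Ncr1) between WT and Vehicle, beside 35.4% of the 17059 genes tested, 12.5% higher and 22.9% lower. The median log2 fold change over all ATM genes was -0.21 in that comparison and -0.20 with the size factors of DESeq2, so small negative values are near the middle of the table.

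Gzmb was at 413, 525 and 558 normalized counts in WT and 6928, 6766 and 7035 in Vehicle, 13.8-fold higher (log2 fold change 3.79, SE 0.101, edgeR adjusted p = 3.62e-14). Tbx21 was at 529, 668 and 623 in WT and 1269, 1396 and 1100 in Vehicle (log2 fold change 1.05, SE 0.132, edgeR adjusted p = 6.19e-06). This gene lay at the limit of 1, and it was at 0.97 without Vehicle replicate 2 and 0.96 without WT replicate 1. Gzma was at 951 ± 124 and 546 ± 37.8 (log2 difference -0.80) and Prf1 at 524 ± 109 and 496 ± 113 (log2 difference -0.08, edgeR adjusted p = 0.765).

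Ncr1 was nearly absent from the ATM Vehicle libraries, with raw counts of 0, 0 and 12, against 114, 109 and 106 in WT (log2 fold change -4.35, SE 0.89, edgeR adjusted p = 0.000639). Without Vehicle replicate 1 the change was -3.76. Without Vehicle replicate 3 both remaining libraries were at 0 and Ncr1 was at least 29.0-fold lower than in WT, taking 3 counts per library as the floor. Klrd1 was at 144, 121 and 183 normalized counts in WT and 34.7, 1.47 and 12 in Vehicle (log2 fold change -3.19, SE 0.648, edgeR adjusted p = 0.000601), and at -4.46 without Vehicle replicate 1. Klrb1c was at 224, 222 and 280 in WT and 57.4, 96.9 and 7.48 in Vehicle (log2 fold change -2.16, SE 0.617, edgeR adjusted p = 0.00752), and at -2.87 without Vehicle replicate 2. Every Vehicle library was below every WT library for the 3 receptor genes, although the Vehicle libraries spread widely among themselves. The share of all ATM genes without overlap is not given here.

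Nkg7 was at 2298 ± 106 in ATM WT and 1032 ± 84 in Vehicle (log2 fold change -1.16, SE 0.0696, edgeR adjusted p = 8.24e-10). Klrk1 was at 496 ± 103 and 718 ± 183 (log2 difference 0.53) and Eomes at 398 ± 12.8 and 285 ± 16.8 (log2 difference -0.48, edgeR adjusted p = 0.0764). Neither was called. Within the 10 genes, Gzmb took 6.56 to 8.71% of the counts in ATM WT and 59.8 to 62.9% in ATM Vehicle.

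**Figure D3:**
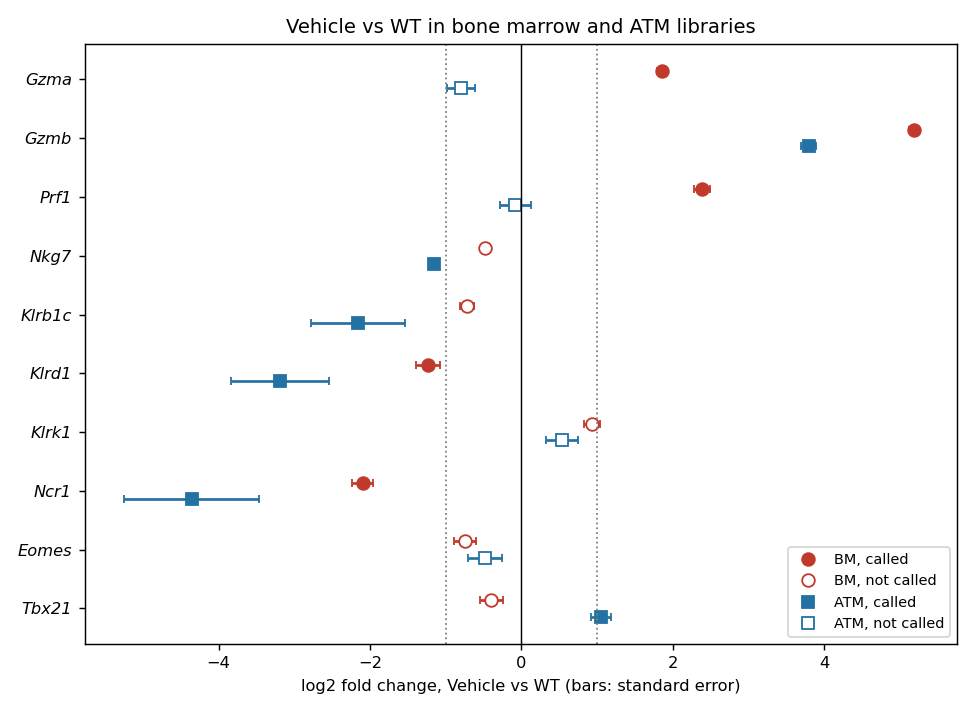
Log2 fold change (± SE) of the 10 genes in Vehicle against WT, with circles for BM and squares for ATM, filled where called. Gzmb lies far above 0 and Ncr1 and Klrd1 below -1 in both tissues, whereas Gzma and Prf1 are above 1 in BM and at or below 0 in ATM.

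T cell markers, like Ncr1, Klrd1 and Klrb1c, were lowest in Vehicle in ATM. They did not follow these genes in all groups, since Klrd1 averaged 102 normalized counts with the agonist and 149 in WT. Of the 12 tested, 7 were lower in Vehicle than in WT, and their summed level was 462 to 507 CPM in WT, 252 to 276 in Vehicle, 1004 to 1030 with the GLP-1R agonist, 935 to 955 with the antibody and 1609 to 1630 in Combo. Cd3e, a subunit of the T cell receptor complex, was at 66.1 to 74.2 CPM in WT and 20.0 to 26.9 CPM in Vehicle, so it was not at 0 in any group. Mast cell and basophil markers summed to 232 to 246 CPM in ATM WT and 1066 to 1195 CPM in ATM Vehicle, with 6 of 8 higher. Macrophage markers summed to 4733 to 4983 CPM in WT and 2652 to 2826 CPM in Vehicle, with 7 of 13 lower and 2 higher. Over all genes, 22.9% were called lower and 12.5% higher in that comparison. The part of T cells, mast cells or the lower F4/80 signal in the values of the 10 genes was not tested.

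**Figure D4:**
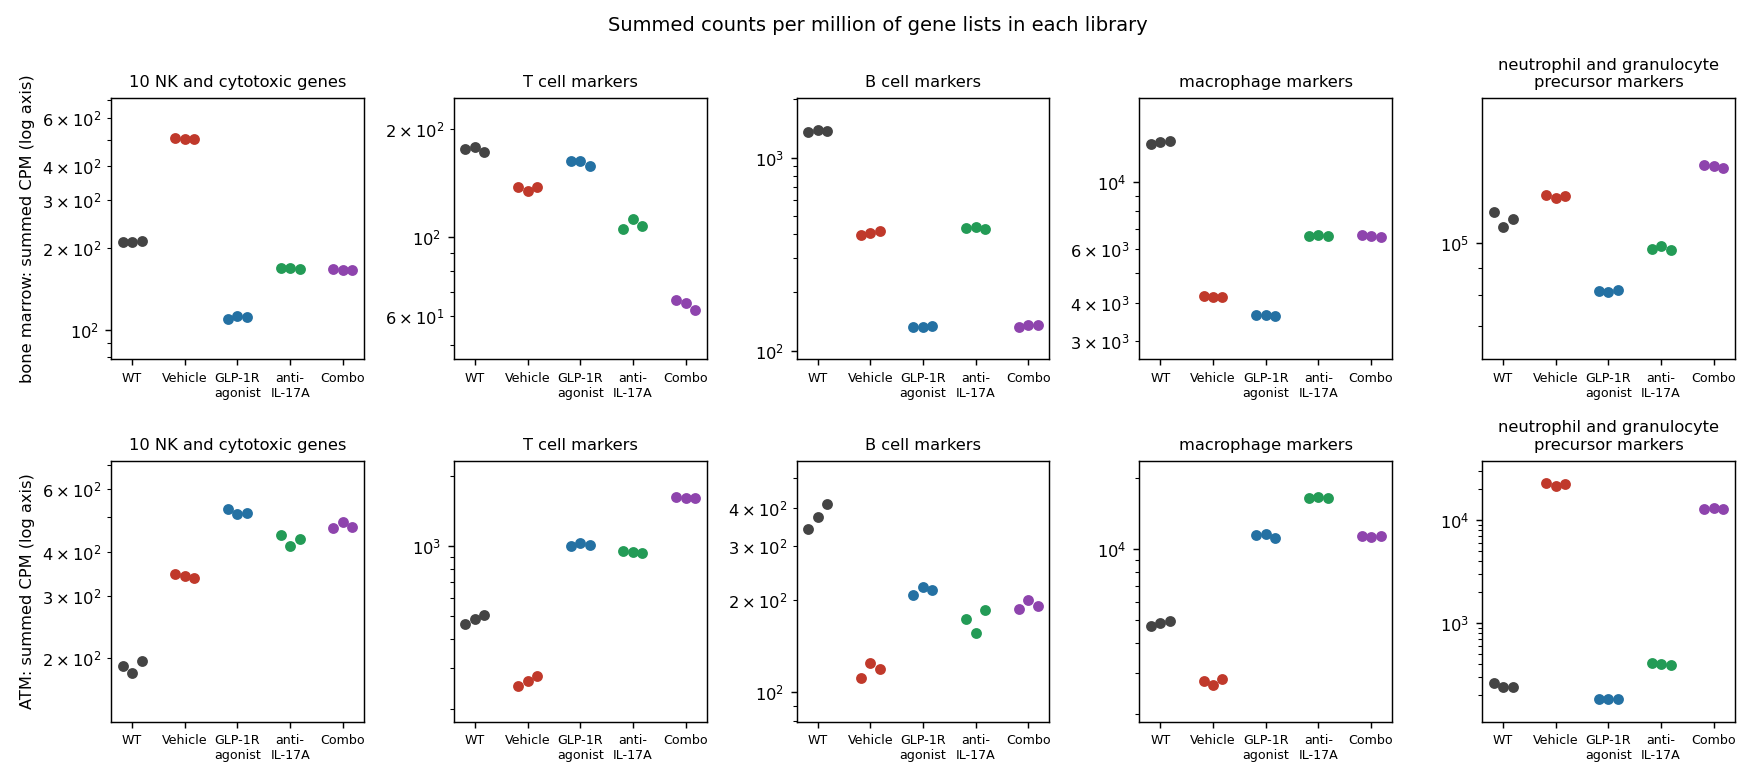
Summed CPM (log axis) of the 10 genes and of T cell, B cell, macrophage and neutrophil markers in each library, with BM in the upper row and ATM in the lower row. In ATM the T cell markers are lowest in Vehicle (252 to 276 CPM) and highest in Combo (1609 to 1630 CPM), while neutrophil markers are high in Vehicle and Combo only.

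After treatment, Ncr1, Klrd1 and Klrb1c were counted in every ATM library. Nkg7, Klrb1c, Klrd1, Ncr1 and Eomes rose against Vehicle in each of the 3 treated groups. The 3 comparisons use the same Vehicle libraries, 2 of which held no Ncr1 count. For each comparison the values are therefore given by library.

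With the GLP-1R agonist, 7 of the 10 genes rose and 0 fell, beside 31.8% of all genes called and 20.8% called higher. The median over all genes was 0.19. Prf1 was at 2019, 1787 and 2105 normalized counts against 497, 383 and 609 in Vehicle (log2 fold change 1.99, SE 0.208, edgeR adjusted p = 7.81e-07). Eomes was at 1510, 1626 and 1618 against 278, 304 and 272 (log2 fold change 2.48, SE 0.228), and Tbx21 at 2986, 2551 and 2947 (1.17, SE 0.13). For these 3 genes the agonist libraries were the highest of all ATM libraries.

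Under the agonist Nkg7 was at 3409 ± 62.4 (log2 fold change 1.72, SE 0.0701), and Ncr1 at 59.7, 183 and 125 against 0, 0 and 18 in Vehicle (4.36, SE 0.89). Klrb1c was at 320, 240 and 290 (2.39, SE 0.62) and Klrd1 at 143, 75.9 and 88.1 (2.65, SE 0.639). Without Vehicle replicate 1 Ncr1 was at 3.75 and Klrd1 at 3.91, and without Vehicle replicate 2 Klrb1c was at 3.09. Without Vehicle replicate 3 Ncr1 was at least 29.1-fold higher. In a fit of only the 6 libraries compared, the Klrd1 change was 2.60 with an adjusted p of 0.052. Gzmb was at 5610, 5661 and 5243, below every Vehicle library but inside the fold limit (log2 difference -0.33).

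With the anti-IL-17A antibody, 5 genes rose and 1 fell, beside 35.5% of all genes called, 22.4% higher and 13.1% lower. The median over all genes was 0.17. Nkg7 was at 6663, 6141 and 5967 normalized counts against 977, 991 and 1129 in Vehicle (log2 fold change 2.60, SE 0.0716, edgeR adjusted p = 4.18e-14). Eomes was at 1237 ± 182 (2.12, SE 0.225), Ncr1 at 102, 125 and 127 (4.31, SE 0.887) and Klrd1 at 111, 129 and 161 (3.03, SE 0.643). Gzmb fell to 2565, 2499 and 2523 (log2 fold change -1.45, SE 0.09, edgeR adjusted p = 1.46e-09), still above the 413 to 558 of WT. Klrb1c was at 116, 96.4 and 364, overlapping Vehicle, and its change of 1.83 (SE 0.612, edgeR adjusted p = 0.0184) rested on antibody replicate 3. Without that library it was 0.97 with an adjusted p of 0.169, and with only the 6 libraries compared 1.84 with an adjusted p of 0.118. Without Vehicle replicate 1 Ncr1 was at 3.70 and Klrd1 at 4.28, without Vehicle replicate 2 Klrb1c was at 2.54, and without Vehicle replicate 3 Ncr1 was at least 28.1-fold higher.

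In Combo, 5 genes rose and 1 fell against Vehicle, beside 26.4% of all genes called, 14.1% higher and 12.2% lower. Ncr1 was at 335, 366 and 193 normalized counts, above every other ATM library (log2 fold change 5.64, SE 0.919, edgeR adjusted p = 0.000102). Klrd1 was at 198, 310 and 244 (3.94, SE 0.662), Klrb1c at 387, 361 and 515 (2.96, SE 0.63) and Nkg7 at 6959, 7150 and 6829 (2.76, SE 0.072). Gzmb was at 2336, 2735 and 2405 (-1.47, SE 0.0902, edgeR adjusted p = 1.51e-09), close to its level with the antibody alone. Without Vehicle replicate 1 Ncr1 was at 5.04 and Klrd1 at 5.20, without Vehicle replicate 2 Klrb1c was at 3.67, and without Vehicle replicate 3 Ncr1 was at least 70.9-fold higher.

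Eomes and Gzma lay at the limit in that comparison. Eomes was at 782, 692 and 356 in Combo (log2 fold change 1.099, SE 0.221, edgeR adjusted p = 0.000685), with replicate 3 low, and at 0.88 without Combo replicate 1 and 1.00, just under the limit, without Combo replicate 2. Gzma was at 1137, 1074 and 1030 against 573, 562 and 503 in Vehicle, a log2 difference of 0.98 just inside the limit, and it passed at 1.02 without Combo replicate 3, 1.02 without Vehicle replicate 1 and 1.01 without Vehicle replicate 2. Prf1 was at 724 ± 156 (log2 difference 0.54), Tbx21 at 1908 ± 306 (0.60) and Klrk1 at 919.5 ± 28.8 (0.36), and none of these 3 genes was called.

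**Figure D5:**
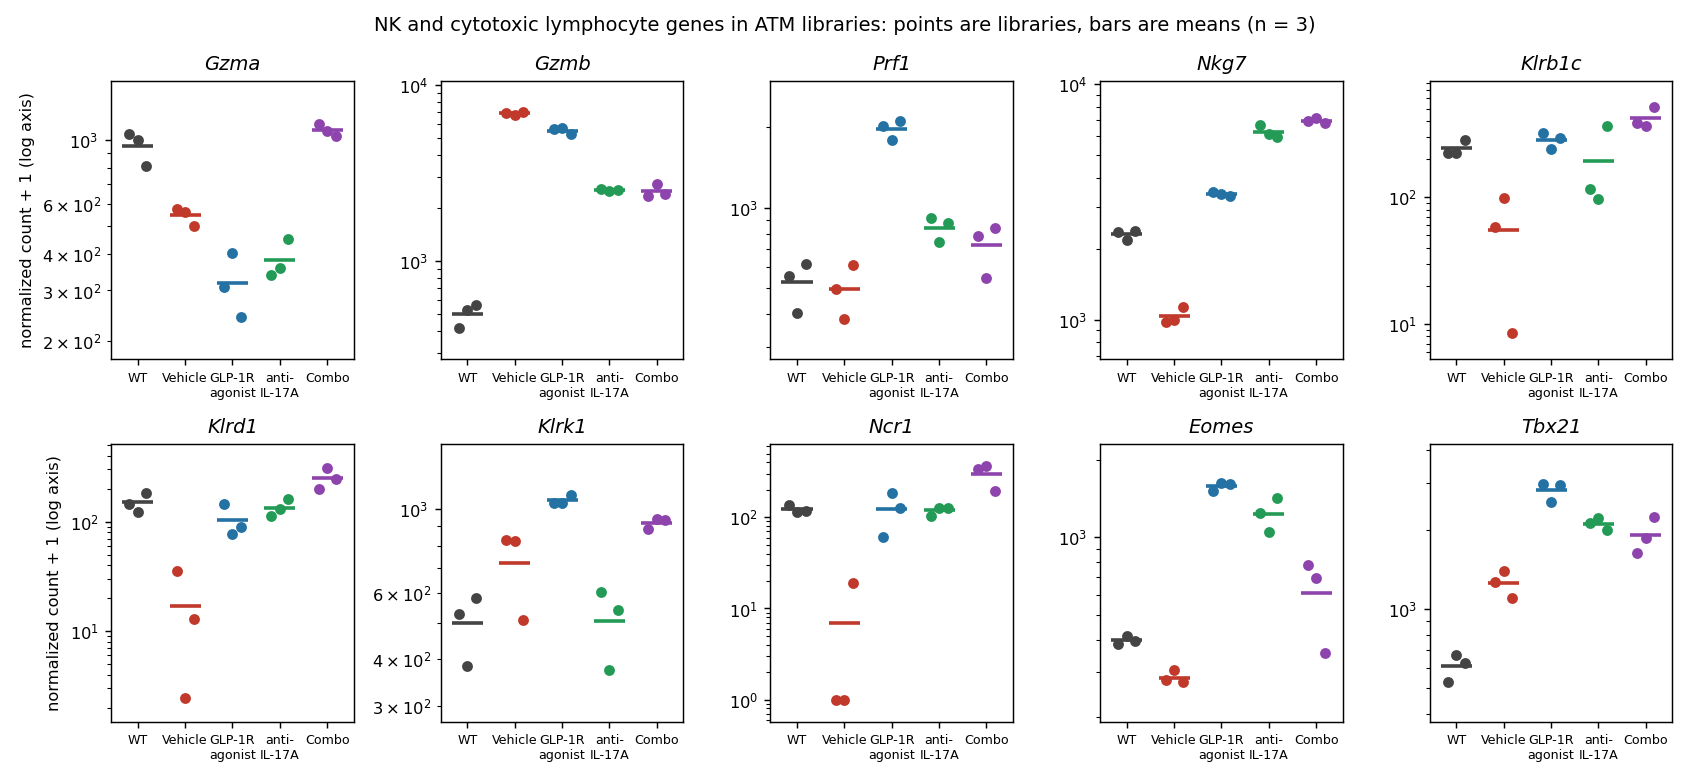
Normalized count + 1 (log axis) of each of the 10 genes in the 15 ATM libraries, by group. Points are libraries and bars are group means of 3 libraries. Ncr1 is at 0 in 2 of 3 Vehicle libraries, Gzmb is highest in Vehicle, and Prf1, Eomes and Tbx21 are highest with the GLP-1R agonist.

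Against WT, the ATM Combo libraries were higher for 3 genes, Gzmb (log2 fold change 2.32), Nkg7 (1.60) and Tbx21 (1.65), beside 21.6% of all genes called and 7.08% called higher. Klrk1 was at 0.89, and at 1.02 and called without WT replicate 3. Ncr1 was at 1.29 with an edgeR adjusted p of 0.166, a difference not detectable in the fit of all 15 libraries, although a fit of only the 6 libraries compared called it at 1.33. All 12 T cell markers were higher in Combo than in WT.

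Against the GLP-1R agonist alone, Combo was higher for Gzma (1.77) and Nkg7 (1.03) and lower for Gzmb (-1.14), Prf1 (-1.45) and Eomes (-1.38), beside 18.7% of all genes called, 5.38% higher and 13.4% lower. The Ncr1 difference of 1.29 (edgeR adjusted p = 0.174) and the Klrd1 difference of 1.29 (adjusted p = 0.0923) were called, at 1.33 each, when only the 6 libraries were fitted. Against the antibody alone, Gzma was higher (1.501) and Eomes lower (-1.02), beside 14.2% of all genes called, 3.73% higher and 10.5% lower. Eomes was at -0.75 without Combo replicate 3 and -0.91 without antibody replicate 3. Klrb1c was called at 1.99 without antibody replicate 3 and Klrk1 at 1.01 without antibody replicate 1, and a fit of only the 6 libraries called Ncr1 at 1.34.

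In ATM the genes fell into other orders than in BM, with neighbours compared in the same way. Ncr1 and Klrb1c ran Combo, GLP-1R agonist, WT, antibody, Vehicle from high to low, and for both the only neighbours that differed were the antibody and Vehicle. Gzmb ran Vehicle, agonist, antibody, Combo, WT, in which the antibody and Combo did not differ. Prf1 and Eomes ran agonist, antibody, Combo, WT, Vehicle. No neighbouring groups differed for Klrk1, but its highest (agonist) and lowest (WT) means were 2.13-fold apart, and those groups are not neighbours. Per kilobase of exon, Gzmb at 145 RPKM had the highest level of the 10 in ATM Vehicle, and Nkg7 had it in ATM Combo at 230 RPKM, while Ncr1 went from 2.39 RPKM in WT to 0.12 in Vehicle and 5.83 in Combo.

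Between Vehicle and WT, 3 of the 10 genes were called in both tissues with the same direction: Gzmb higher, Klrd1 and Ncr1 lower. The difference between tissues was tested as an interaction of tissue and group in 1 fit of 30 libraries and 13076 common genes. It passed an adjusted p of 0.05 for 8 of the 10 genes in Vehicle against WT, beside 56% of all genes. For Gzma the change in BM exceeded that in ATM by 2.65 on the log2 scale (edgeR adjusted p = 6.24e-11), and for Prf1 by 2.46. In Combo against Vehicle it passed for 10 of 10, beside 55.1% of all genes, with Ncr1 (-5.72), Gzma (-5.54) and Klrd1 (-5.00) furthest apart. Without ATM Vehicle replicate 1 Ncr1 was at -5.07 and Klrd1 at -6.24, and without ATM Vehicle replicate 2 Ncr1 was at -5.12. Without replicate 3 no Ncr1 count remained in ATM Vehicle, and the size of its difference then depends on the fit. Gzmb fell in both tissues under Combo, whereas Klrb1c and Klrd1 fell in BM and rose in ATM.

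Other genes of the killing machinery, were taken as a list of 17. In BM, 6 of 17 were higher and 1 lower in Vehicle than in WT, beside 9.44% and 10% of all genes (median log2 fold change 0.54, against -0.02 over all genes). Ccl5, a chemokine stored with the granules of cytotoxic cells, was at 1145 ± 63.0 normalized counts in WT and 7193 ± 85.1 in Vehicle. Ifng, the interferon made by NK and T cells, was at 27.9 ± 1.15 and 130 ± 12.8 (log2 fold change 2.22), and Gzmc at 2.88 ± 1.96 and 113 ± 17.6. In Combo against Vehicle 9 of 17 were lower and 0 higher (median -1.19), beside 11.1% of all genes called lower (median 0.02). Ccl5 was at 500.1 ± 21.3 (log2 fold change -3.85). In ATM, 8 were higher and 3 lower in Vehicle than in WT (median 0.88), beside 12.5% and 22.9% of all genes (median -0.21). Ccl5 was among the higher ones at 4.13. Combo against Vehicle in ATM had 6 higher and 5 lower, beside 14.1% and 12.2% of all genes. Ctsw, the granule protease cathepsin W, was at 3.88, the chemokine gene Xcl1 at 3.67 and Ccl5 at -3.06.

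Of 27 NK receptor and signalling genes outside the 10 that were tested in BM, 10 were lower and 2 higher in Vehicle than in WT (median -0.72). Over all genes, 10% were lower and 9.44% higher. The inhibitory Ly49 receptor gene Klra1 was at 74.3 ± 22.3 in WT and 13.6 ± 9.47 in Vehicle, and Cd160 at 141 ± 7.34 and 27.6 ± 11.6. In BM Combo against Vehicle 14 were lower and 0 higher (median -1.03), beside 11.1% of all genes called lower. In ATM 13 of 29 were lower and 4 higher in Vehicle than in WT (median -0.85). Over all genes, 22.9% were lower and 12.5% higher (median -0.21), so the 4 higher ones are near that share. In ATM Combo against Vehicle 20 were higher and 0 lower (median 1.94), beside 14.1% and 12.2% of all genes (median 0). Klre1 was at 97.4 ± 9.07 in ATM WT, 4.45 ± 7.71 in Vehicle and 113 ± 51.9 in Combo. Klra1 had no count in any ATM Vehicle library and was at least 2.67-fold lower there than in WT and at least 6.47-fold lower than in Combo. The Klra genes are closely related copies. Per the study's methods only uniquely mapped reads were counted, so reads that fit several of these genes may be missing from the values.

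Of 24 cytokine, receptor and transcription factor genes in BM, 10 were higher and 0 lower in Vehicle than in WT (median 0.39), beside 9.44% and 10% of all genes. The largest rises were those of the IL-12 receptor subunits Il12rb1 (3.16) and Il12rb2 (2.71) and of Il15ra (2.51), which presents IL-15. In Combo against Vehicle 10 were lower and 1 higher, beside 11.1% of all genes called lower. In ATM, Il15 was at 273 ± 29.4 normalized counts in WT, 3110 ± 283 in Vehicle and 251 ± 19.7 in Combo, and Il15ra at 826 ± 119, 6551 ± 520 and 710 ± 66.8. Other genes of the list did not share this pattern. Il18r1 rose from 57.8 ± 28.0 in ATM Vehicle to 546 ± 161 in ATM Combo (log2 fold change 3.24). Il12rb1 was at 87.0 ± 54.8 in ATM WT, 450 ± 157 in Vehicle and 693 ± 48.6 in Combo. The ligands of the member receptors were a list of 5 genes in BM and 8 in ATM. H2-T23, whose product Qa-1 is read by CD94 with NKG2A, was at 7248 ± 126 in BM WT, 21739 ± 299.8 in BM Vehicle and 4629 ± 79.9 in BM Combo. H2-T23 changed in ATM by 2.49 in Vehicle against WT and -2.53 in Combo against Vehicle. Other ligands shared this pattern only in part. Clec2d was lower in BM Vehicle (1885 ± 110) than in BM WT (3134 ± 288), and Clec2i rose in ATM Combo against Vehicle (1.83). Clec2d in ATM (2.49 in Vehicle against WT, -1.80 in Combo against Vehicle) and Clec2i in BM Vehicle against WT (1.16) changed in the direction of H2-T23.

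Across the 15 BM libraries, the genes whose log2 CPM followed Ncr1 most closely were Gfra2 (Pearson r 0.97), Cd209d, Bfsp2, Zeb2 and Vpreb2 (0.96 each). In ATM they were Nup210 (0.96), Hmgb1, Cd7 and Mcm4 (0.95 each) and Tsn (0.94). No member was among them. Within the 10 genes, r was 0.95 for Gzmb with Prf1 and 0.91 for Klrb1c with Klrd1 in BM, and 0.87 for Klrd1 with Ncr1 in ATM. These libraries fall into 5 groups and share depth and makeup within each, so r describes the order of the groups and is not a test.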

How the data were processed

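Gene-level raw counts of 30 mouse RNA-seq libraries (15 BM, 15 ATM) were used as deposited. Per the study's methods, the authors aligned reads with STAR 2.7.2a to mm10 and made the counts with featureCounts 2.0.1, unstranded, with reads counted for each gene they overlapped. Groups came from the labels, with 1 batch label for all samples.

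For each tissue, edgeR 4.0.16 (R 4.3.3) was fitted to all 15 libraries with TMM scaling, robust quasi-likelihood tests and filterByExpr, which removed 0 genes. Calls needed an adjusted p (Benjamini-Hochberg) under 0.05 together with a log2 fold change beyond 1. Tests are two-sided. The tissues were compared in 1 fit of 30 libraries. To normalize, each count was multiplied by the tissue's mean effective library size over that of its own library, and errors are SD over 3 libraries. RPKM used the exon length of GENCODE M21. Correlations used log2(CPM + 0.5). The fits were tested on simulated data. Intervals are not given, and floors cover counting error only.

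The 10 members and all lists were chosen with earlier results of these data known. All 10 members are named in every comparison, of each other list at most 3 genes, those with the largest absolute change among the called ones, and the 5 genes most correlated with Ncr1. Alternatives were DESeq2 1.42.0, its size factors in edgeR, other filters on low counts, no fold limit, only the groups compared, a replicate block, voom weights (limma 3.58.1) for the tissue interaction, and leaving out each library. Comparisons made by the authors were not used.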

Additional observations from a re-analysis of the deposited data

Results flagged for a closer look

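The change between groups differed between the tissues for most of the 10 genes, by the interaction term of tissue and group in edgeR (adjusted p under 0.05). Of all 13076 common genes, 56% passed in Vehicle against WT and 55.1% in Combo against Vehicle, so a tissue difference was common. Values are the log2 fold change in BM minus that in ATM. In Vehicle against WT the difference was 2.65 for Gzma, 1.38 for Gzmb, 2.46 for Prf1, 0.67 for Nkg7, 1.44 for Klrb1c, 1.95 for Klrd1, 2.27 for Ncr1 and -1.45 for Tbx21. It did not pass for Klrk1 (0.40, edgeR adjusted p = 0.203) or Eomes (-0.27, adjusted p = 0.432). The Klrb1c difference (adjusted p = 0.0406) was lost without any of 8 of 12 libraries, with an adjusted p of 0.108 without ATM Vehicle replicate 3, and it was at 2.12 without ATM Vehicle replicate 2. Without ATM Vehicle replicate 1 Klrd1 was at 3.21 and Ncr1 at 1.63, and without replicate 2 Ncr1 was at 1.68. Without replicate 3 Ncr1 had no count in ATM Vehicle and its fitted difference of 7.93 is no bound.

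In Combo against Vehicle the difference was -5.54 for Gzma, -4.41 for Gzmb, -4.78 for Prf1, -1.98 for Nkg7, -4.21 for Klrb1c, -5.00 for Klrd1, -3.51 for Klrk1, -5.72 for Ncr1, -1.67 for Eomes and -1.41 for Tbx21. For Ncr1, Klrd1 and Klrb1c these values rest on few ATM counts in Vehicle. Without ATM Vehicle replicate 1 Klrd1 was at -6.24 and Ncr1 at -5.07, without replicate 2 Klrb1c was at -4.87 and Ncr1 at -5.12, and without replicate 3 the fitted Ncr1 difference of -11.36 is no bound. Tissue and the sort for F4/80 cannot be told apart, since only the adipose cells were sorted.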

How the results depend on the processing

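Apart from the settings with no fold limit, no filter on low counts or a library left out, there were 719 values of the 10 genes. Of these, 709 kept direction and side of the threshold, 3 lost and 7 gained a call and 0 reversed. They include fits of only the groups compared, which use fewer libraries, and tissue interactions, which have no fold limit. The size factors of DESeq2 changed no call. Dropping the filter on low counts changes nothing, since it removed 0 genes. Without a fold limit, the members called were 10 (BM Vehicle vs WT, beside 76.6% of all genes), 9 (BM antibody vs Vehicle, 73%), 8 (BM Combo vs agonist, 71.4%), 10 (BM Combo vs antibody, 52.5%) and 5 (ATM Combo vs WT, 41.1%), so 8 of 10 and 5 of 10 are near the background. With at least 10 counts in every library, ATM gave 3 (Vehicle vs WT), 4 (agonist vs Vehicle) and 3 (antibody vs Vehicle), because Klrb1c, Klrd1 and Ncr1 were then not tested. With voom weights, the Klrd1 interaction in Vehicle vs WT was 2.64 with an adjusted p of 0.068.

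Replicate numbers did not pair the samples (correlations of same-numbered deviations -0.14 to 0.30 in BM and -0.15 to 0.03 in ATM), and the replicate block changed no call of the 10 genes, with 5 called in BM and 6 in ATM for Vehicle vs WT.

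Leaving out each library in turn, members called ranged over 4 to 5 (BM Vehicle vs WT), 4 to 4 (BM agonist vs Vehicle), 5 to 5 (BM antibody vs Vehicle), 6 to 6 (BM Combo vs Vehicle), 8 to 8 (BM Combo vs WT), 4 to 5 (BM Combo vs agonist) and 5 to 6 (BM Combo vs antibody). In ATM, in the same order, the ranges were 5 to 6, 7 to 7, 5 to 6, 5 to 7, 3 to 4, 5 to 5 and 1 to 3, with 1 without Combo replicate 3. The interaction counts ranged over 7 to 8 (Vehicle vs WT) and 10 to 10 (Combo vs Vehicle). Reversals occurred in 6 results, none of them called: Ncr1 (-0.102 to 0.0385, BM Combo vs Vehicle), Klrb1c (-0.0565 to 0.135) and Klrd1 (-0.0551 to 0.0838) in BM agonist vs Vehicle, Gzma (-0.22 to 0.11, BM Combo vs agonist), Prf1 (-0.255 to 0.0777, ATM Vehicle vs WT) and Gzmb (-0.0935 to 0.0232, ATM Combo vs antibody). The limits are 3 libraries a group, ATM Vehicle counts of 0 to 66 for Ncr1, Klrd1 and Klrb1c, cell makeup and Xist levels that move with the groups, and counting without strand.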
